A study of Mus musculus with 24 samples.

Results

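The comparison follows irradiated mouse small intestinal organoids from 24 to 48 h after a dose of 6 Gy of gamma rays. It sets the 4 samples taken at 48 h against the 4 taken at 24 h, 8 of the 24 samples of the series, chosen by their titles and not by any measured value. Organoids are cultures of gut epithelium that grow from intestinal crypts in a gel and form their own crypt and villus domains. These came from C57BL/6 mice and were grown in a medium with EGF at 50 ng/ml, Noggin and R-spondin, which both compared groups and all controls shared, and were irradiated 3 days after reseeding. Unirradiated organoids of the same ages, 4 per time, are used here for comparison. They show where the change in irradiated organoids differed from that of ageing cultures, and they give control levels at each time. Whether a group's 4 samples stem from separate cultures or animals is not in the labels, so p-values here measure sample-to-sample spread alone, and part or all of it may be technical.

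Ionising radiation breaks DNA, and the crypt base columnar stem cells and their rapidly dividing daughters are the cells of the gut epithelium that respond most strongly. The p53 protein halts the cell cycle and can trigger apoptosis in them. Surviving cells then resume division and rebuild the crypt, and a regenerating epithelium passes through a state with genes of the fetal gut, such as Ly6a and Anxa1, before the mature cell types return. The mature absorptive cell of the villus, the enterocyte, carries the brush border enzymes, the nutrient carriers and much of the gut's drug-metabolising machinery.

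RNA was measured on Illumina BeadChips. Values are background-corrected, quantile-normalised probe signals on the log2 scale, and a difference between them is the log2 of a fold. A gene was called when its adjusted p in limma, a linear model fitted across all 10798 genes tested, was under 0.05. The p-values are two-sided and adjusted over all of these genes (Benjamini-Hochberg). The samples of 24 h lay on one chip and those of 48 h on another, at the same 4 chip positions, so in this comparison time and chip cannot be told apart. The difference between the changes in irradiated and control organoids is free of what shifts all arrays of a chip alike.

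Fewer probes were detected on the arrays of 24 h, although their median deposited signals, 87.5 to 123, covered about the same span as those of 48 h, 88.6 to 119. Probes detected above background numbered 11469 ± 1475 at 24 h and 13660 ± 783 at 48 h (SD, n = 4 each), a difference of 2191 with an exact two-sided permutation p of 0.0571 over 70 splits. Replicates 3 and 4 of 24 h had the fewest, 9738 and 10783. The counts of several lists, though not of all, are also given without them below. Correlations over genes were 0.959 to 0.982 within the 24 h group, 0.983 to 0.993 within the 48 h group and 0.927 to 0.969 between them. Markers of gut epithelium (Cdh1, Krt8, Krt18, Vil1, Cdx2), of goblet cells (Tff3), Paneth cells (Lyz1), enteroendocrine cells (Chga) and crypt base cells (Lgr5, Olfm4) were detected on all 8 arrays. Among markers of other cell types, those of mesenchyme (Col1a1, Col3a1, Dcn), of blood (Ptprc, Cd3e, Hba-a1, Hbb-b1), of endothelium (Cdh5, Kdr) and of tuft cells (Dclk1, Trpm5, Pou2f3) were detected on 0 of 8. Other markers of these cell types were detected: 2 of the 4 probes of the smooth muscle actin gene Acta2 on all 8 arrays, the brightest at a mean of 10.27 at 24 h and 10.33 at 48 h, Vim on 5 arrays, Pecam1 on 5 by 1 of its 2 probes, and Laptm5 on 3.

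The promoters of 7 genes that rose in irradiated organoids are shown, 4 of mitosis genes, whose list moved mostly one way, and 3 (Ivl, Sprr1a and Ecm1) of genes known from squamous epithelium or matrix, which form no list here. Sequences are from RefSeq (GRCm38.p6), 250 bases before to 50 bases after the annotated start, read 5′ to 3′ on the gene's own strand. Promoters of mitosis genes often pair CCAAT boxes, bound by NF-Y, with a cell cycle genes homology region, TTTGAA, through which the DREAM complex holds them off in resting and p53-arrested cells. The 4 shown are those of called mitosis genes that hold both motifs, picked among the larger changes. They are not the largest changes of the list. Cdc25c, for example, rose by 1.06 on its brightest probe and is not shown, and its motifs are not given here. The 4 are Top2a at chr11:99024140-99024439 (minus strand), Kif11 at chr19:37376132-37376431 (plus strand), Ttk at chr9:83834439-83834738 (plus strand), Cdca8 at chr4:124936868-124937167 (minus strand). Capitals mark CCAAT and TTTGAA on either strand, which overlap once, in Cdca8.
Top2a: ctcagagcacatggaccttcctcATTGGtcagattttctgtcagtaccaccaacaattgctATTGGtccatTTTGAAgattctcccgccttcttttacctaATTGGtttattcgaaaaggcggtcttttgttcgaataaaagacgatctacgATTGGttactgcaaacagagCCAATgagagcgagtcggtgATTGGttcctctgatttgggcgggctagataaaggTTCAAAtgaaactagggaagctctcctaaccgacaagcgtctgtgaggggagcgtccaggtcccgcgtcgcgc
Kif11: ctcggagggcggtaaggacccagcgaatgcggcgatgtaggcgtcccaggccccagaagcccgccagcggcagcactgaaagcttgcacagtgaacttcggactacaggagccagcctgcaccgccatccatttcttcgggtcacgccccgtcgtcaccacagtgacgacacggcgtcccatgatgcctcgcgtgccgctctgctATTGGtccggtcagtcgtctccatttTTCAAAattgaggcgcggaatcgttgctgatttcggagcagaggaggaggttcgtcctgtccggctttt
Ttk: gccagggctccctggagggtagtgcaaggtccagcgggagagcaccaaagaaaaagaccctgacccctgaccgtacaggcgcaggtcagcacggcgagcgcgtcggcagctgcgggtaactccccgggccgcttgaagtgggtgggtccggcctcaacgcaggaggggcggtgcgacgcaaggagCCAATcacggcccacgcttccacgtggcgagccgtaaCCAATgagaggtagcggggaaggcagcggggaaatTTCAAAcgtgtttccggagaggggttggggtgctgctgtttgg
Cdca8: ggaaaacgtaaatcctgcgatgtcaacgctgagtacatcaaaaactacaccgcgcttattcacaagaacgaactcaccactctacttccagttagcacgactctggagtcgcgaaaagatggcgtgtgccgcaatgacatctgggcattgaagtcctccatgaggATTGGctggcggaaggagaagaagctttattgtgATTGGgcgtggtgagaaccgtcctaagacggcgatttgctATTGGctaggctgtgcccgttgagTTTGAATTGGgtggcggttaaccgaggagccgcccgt

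Of the 21 mitosis genes called higher, 18 matched a promoter in the table, and 12 of those, 66.7%, held both motifs. Of the 7 matched mitosis genes that were not called, 4 held both, and 7.12% of all 27025 tabulated promoters did (37.9% held CCAAT and 18.1% TTTGAA). Both motifs were thus frequent among called and uncalled mitosis genes. The second set comprises Ivl at chr3:92573686-92573985 (minus strand), Sprr1a at chr3:92485832-92486131 (minus strand), Ecm1 at chr3:95739520-95739819 (minus strand), with capitals on TGANTCA, the motif of the AP-1 factors Fos and Jun, which drive squamous genes in skin. They were picked after their values were seen and as genes holding this motif, so its presence in them is not a result.
Ivl: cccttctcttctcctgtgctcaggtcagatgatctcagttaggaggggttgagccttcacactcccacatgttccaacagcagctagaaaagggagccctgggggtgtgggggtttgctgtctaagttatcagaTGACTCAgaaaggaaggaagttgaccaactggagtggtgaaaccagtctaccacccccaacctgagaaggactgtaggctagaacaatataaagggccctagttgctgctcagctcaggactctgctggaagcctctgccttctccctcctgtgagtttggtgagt
Sprr1a: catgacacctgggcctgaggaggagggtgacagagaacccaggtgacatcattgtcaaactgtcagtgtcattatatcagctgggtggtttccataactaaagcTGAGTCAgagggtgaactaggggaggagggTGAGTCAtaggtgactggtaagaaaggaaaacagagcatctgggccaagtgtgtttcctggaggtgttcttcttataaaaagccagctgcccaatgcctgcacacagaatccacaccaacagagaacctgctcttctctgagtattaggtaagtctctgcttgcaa
Ecm1: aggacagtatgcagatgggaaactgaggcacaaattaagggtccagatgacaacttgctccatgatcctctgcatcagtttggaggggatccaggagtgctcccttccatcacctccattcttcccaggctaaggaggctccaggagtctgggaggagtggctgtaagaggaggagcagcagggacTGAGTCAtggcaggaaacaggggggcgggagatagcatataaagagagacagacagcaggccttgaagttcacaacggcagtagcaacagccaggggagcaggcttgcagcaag

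The AP-1 motif stood in 7.93% of all promoters and in 5.37% of those matched to genes tested. It stood in 5 of the 13 matched promoters of the fetal-like genes called higher, and in 3 of the 8 largest higher differences from controls. These 8 include Ivl and Ecm1, shown above. Both sets were chosen by their changes in these data, and uncalled fetal-like genes were not counted, so no conclusion is drawn from these counts. A match is a run of letters and not a shown binding site.

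From 24 to 48 h, 1830 genes rose in irradiated organoids (16.9% of those tested) and 1535 fell (14.2%). Dividing-cell, crypt base, fetal-like, Paneth and enteroendocrine genes rose, and enterocyte, drug-metabolism, glutathione and glycolysis genes fell. In 1886 genes (17.5%) all 4 values of 48 h lay above all 4 of 24 h, and in 1569 (14.5%) all 4 lay below. The controls moved the same way in much of this: 1200 genes rose (11.1%) and 970 fell (8.98%), and 845 of the rises and 678 of the falls in irradiated organoids were also called in the controls, which is 46.2% and 44.2% of the irradiated calls and 70.4% and 69.9% of the control calls. The irradiated change itself differed from the control change for 108 genes, 27 higher (0.25%) and 81 lower (0.75%). The direction split depends on the scaling. After scaling each array by its median alone, the median change of all genes was 0.36 in place of 0.04, and 4107 genes were higher and 536 lower, so the changes below are relative to a quantile scale on which all arrays share one distribution.

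**Figure D1:**
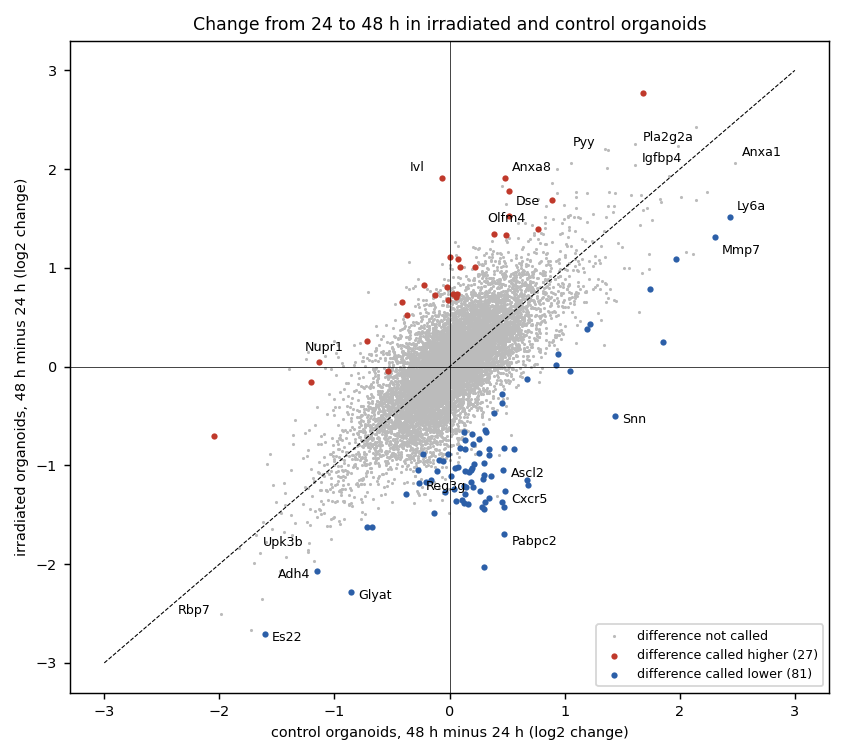
Change from 24 to 48 h in log2 units, controls on the x axis and irradiated organoids on the y axis, for 10798 genes. Points near the dashed line of equal change moved alike in both, and the 27 red and 81 blue genes were called for a difference between the changes; Ivl, Anxa8 and Dse lie above the line, and Pabpc2, Snn and Cxcr5 below it.

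Genes of dividing cells rose in irradiated organoids. Of 30 mitosis genes tested, 21 rose and 0 fell, with a median change of 0.52, against 5 higher, 1 lower and a median of 0.16 in controls. The median over all genes tested was 0.04. Top2a, the topoisomerase that untangles chromosomes before division, read 7.54, 7.48, 7.58 and 7.65 at 24 h and 8.55, 8.61, 8.45 and 8.15 at 48 h. Every 48 h value lay above every 24 h value, a 1.84-fold rise (log2 0.88, SE 0.19, adjusted p = 0.00101). Kif11, a spindle motor, read 8.55, 8.27, 8.39 and 8.35 and then 9.32, 9.38, 9.05 and 9.28, again without overlap, a 1.83-fold rise (adjusted p = 3.32e-06). Cyclin B1 (Ccnb1), which starts mitosis with its kinase, rose 1.41-fold, from 6.90 to 7.09 at 24 h to 7.34 to 7.70 at 48 h (adjusted p = 0.00294). Incenp, a scaffold of the chromosomal passenger complex, rose 2.03-fold, and Cdca8, another subunit, rose by 0.76. Cenpe, a kinetochore motor, was not above background on any 24 h array and was at least 1.15-fold higher at 48 h. Cdc25c, the phosphatase that switches on the mitotic kinase, rose by 1.06 on its brightest probe and missed the threshold on the other probes. Ccna2, Birc5 and Ube2c differed by 0.04, 0.08 and −0.14 and were not called. The centromeric histone Cenpa was the 1 mitosis gene whose change also differed from the controls (0.74 against 0.07). The mean level of the tested mitosis genes was 7.63 to 7.69 on the 24 h arrays, 8.14 to 8.21 at 48 h, and 8.23 to 8.43 and 8.46 to 8.56 in controls of 24 and 48 h. The irradiated organoids were thus below their controls at both times, by a median over genes of 0.70 at 24 h and 0.32 at 48 h. Without replicates 3 and 4 of 24 h, 13 mitosis genes were called higher and 0 lower, and 9 and 0 when each array's count of detected probes entered the fit.

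DNA replication genes rose in 19 of 36 tested and none fell (median 0.41), the same count as in the controls (19 higher, 0 lower, 0.40). Mcm3, a subunit of the replicative helicase, read 7.13, 7.22, 7.19 and 6.92 at 24 h and 8.14, 7.99, 8.06 and 8.01 at 48 h, without overlap, a 1.91-fold rise (adjusted p = 4.28e-06). Mcm2 rose by 0.53. Pola1, the catalytic subunit of DNA polymerase alpha, was at least 1.12-fold higher at 48 h, and Pole rose by 0.96. The clamp Pcna, itself a p53 target, was not called (adjusted p = 0.991), with values of 10.19 to 10.35 at 24 h and 10.03 to 10.45 at 48 h that overlapped. DNA repair genes were called in 15 of 28, all higher (median 0.39), with Xrcc5, Brca1 and Topbp1 moving most (1.10, 0.89 and 0.84), and in controls 11 were higher and 0 lower (0.40). Ribosome biogenesis genes were called in 13 of 23, all higher (0.40), with Dkc1, Rrs1 and Myc moving most (1.04, 0.88 and 0.72), and Myc on its brightest probe only. In the controls 8 were higher and 0 lower. Without replicates 3 and 4 of 24 h, 16, 9 and 6 genes of these 3 lists were called higher. Among 45 replication-dependent histone genes, Hist1h2ab (0.89) and Hist1h1c (0.33) rose and Hist2h2aa1 fell by 0.80. Their mean level on the 4 control arrays of 48 h ranged from 7.84 to 9.95, and 0 of 45 were called for a difference between irradiated and control changes.

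Crypt base genes rose in irradiated organoids. Of 19 tested, 13 rose and 1 fell (median 0.77), against 11 higher and 0 lower in controls (0.44). Olfm4, a secreted glycoprotein of crypt base columnar cells, read 9.90, 9.82, 9.91 and 9.99 at 24 h and 11.39, 11.28, 11.33 and 11.20 at 48 h, a 2.63-fold rise without overlap (adjusted p = 2.3e-09). Its rise exceeded that of the controls, from 11.02 to 11.30 at 24 h to 11.84 to 12.11 at 48 h, by 0.63 (adjusted p = 0.0303), a call lost in 11 of the 16 fits that each left out 1 array of these 4 groups (adjusted p up to 0.082). The Wnt receptor component Lgr5, the marker gene of these stem cells, read 6.65, 6.58, 6.40 and 6.83 and then 7.63, 7.54, 7.75 and 7.84, a 2.10-fold rise (adjusted p = 1.82e-06). Lgr5 was still below the controls of 48 h, 8.35 to 8.77. Igfbp4, an IGF-binding protein made by crypt base cells, rose 4.11-fold, from 6.14 to 6.56 to 8.30 to 8.59, which is the level of the controls of 48 h (8.14 to 8.73). The water channel Aqp4 rose by 1.01 and by 0.22 in controls, and this difference was also called. Axin2, a feedback inhibitor and readout of Wnt signalling, rose by 0.84 and by 0.94 in controls. Among 14 Wnt target genes 7 rose and 1 fell (median 0.47), and in controls 9 and 0 (0.51).

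The exception was Ascl2, the transcription factor that holds crypt base cells in the stem state. It read 7.58, 8.13, 8.03 and 7.56 at 24 h and 6.47, 6.67, 6.98 and 6.99 at 48 h, so all 4 arrays of 48 h were lower, a 2.07-fold fall (adjusted p = 7.59e-06). In controls it rose, from 5.82 to 6.11 to 6.30 to 6.47. The changes differed by −1.51 (adjusted p = 0.000282). At 24 h irradiated organoids had stood 1.92 above the controls, and at 48 h they stood 0.41 above (adjusted p = 0.0538).

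**Figure D2:**
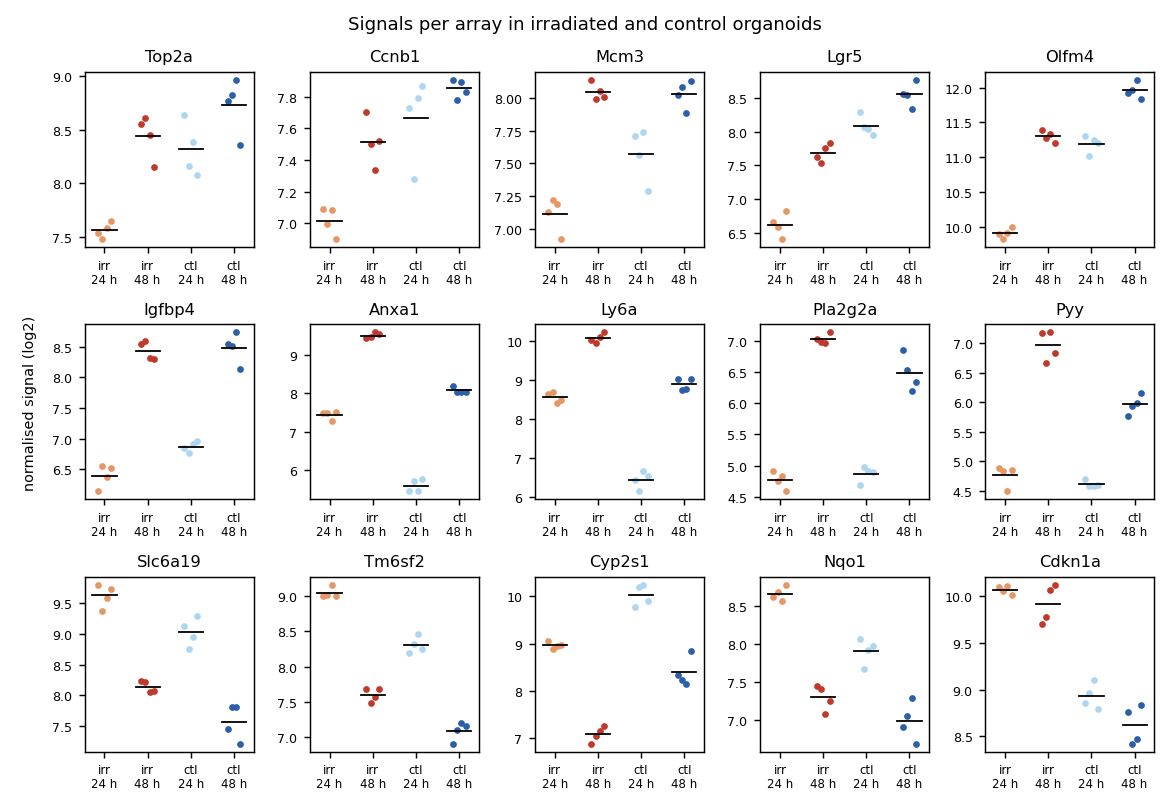
Normalised log2 signal per array for 15 genes in irradiated (irr) and control (ctl) organoids at 24 and 48 h; points are arrays and bars are means of 4. Top2a, Mcm3, Lgr5, Olfm4, Igfbp4 and Anxa1 have no 48 h irradiated value below the highest of 24 h, Slc6a19, Tm6sf2, Cyp2s1 and Nqo1 run the other way, and Cdkn1a overlaps.

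The p53 target genes showed no common direction. Of 34 p53 target genes tested, 6 rose and 4 fell (median 0.13), near the shares over all genes. Irradiated organoids exceeded their controls by a median of 0.87 at 24 h and 0.69 at 48 h over these genes. Cdkn1a, the p21 inhibitor that arrests the cell cycle, read 10.10, 10.05, 10.10 and 10.01 at 24 h and 9.70, 9.78, 10.06 and 10.12 at 48 h. Both groups overlapped and the change of −0.15 was not called (adjusted p = 0.339), while the controls lay at 8.80 to 9.10 and 8.42 to 8.84. Mdm2, the ligase that degrades p53, moved by 0.14, Ccng1 by 0.21, Phlda3 by −0.04, and the pore former Bax by −0.09, none of them called. The BH3-only gene Bbc3 (Puma) changed by 0.36 and was not called. Plk2, a checkpoint kinase, rose by 0.68 (1.42 in controls), the repair gene Xpc was at least 1.14-fold higher, and Trp53inp1 rose by 0.44 on its brightest probe only. Dcxr fell by 0.73, the growth-restraining sestrin Sesn1 by 0.66, the stress cytokine Gdf15 by 0.64 and the death receptor Tnfrsf10b by 0.61, a gene whose probes were called in opposite directions. With median scaling 19 of the 34 were higher and 1 lower. Among 25 apoptosis genes, 4 rose and 3 fell. The survival gene Bcl2 rose 2.56-fold, from 7.10 to 7.84 to 8.56 to 8.77, and Bok, its relative, by 1.05, while the caspase Casp6 fell by 0.68. In controls Bcl2 and Bok rose by 0.98 and 1.27.

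Genes of the fetal-like, regenerating epithelium rose further. Of 28 tested, 20 rose and 1 fell (median 0.58), and in controls 16 and 1 (0.62). Anxa1, an annexin of regenerating gut, read 7.49, 7.49, 7.27 and 7.53 at 24 h and 9.44, 9.45, 9.59 and 9.53 at 48 h, a 4.17-fold rise without overlap (adjusted p = 5.66e-12). Controls rose by 2.48, from a lower level, 5.45 to 5.77, to 8.03 to 8.20. Ly6a (Sca-1), the surface marker of that state, read 8.65, 8.70, 8.41 and 8.48 and then 10.03, 9.95, 10.10 and 10.21, a 2.86-fold rise. It rose more in controls, from 6.15 to 6.66 to 8.75 to 9.02, and the changes differed by −0.92 (adjusted p = 0.00774). Anxa3 showed the same order, 1.09 against 1.97 in controls (difference −0.88, adjusted p = 0.0101). Irradiated organoids lay above their controls at both times for Anxa1, Ly6a and Anxa3, by 1.85, 2.11 and 2.09 at 24 h and by 1.43, 1.19 and 1.21 at 48 h. The alarmin Il33 rose 3.39-fold, the surface protein Msln 2.26-fold and the keratin Krt7 by 1.11. The EGF receptor ligand Areg rose by 0.32, a call lost when any of 6 arrays was left out. Upk3b, a uroplakin, was the 1 gene of the list that fell, by 1.71, and by 1.69 in controls. Without replicates 3 and 4 of 24 h, 14 genes of the list were called higher and 1 lower. Of 11 YAP target genes 6 rose and 0 fell (median 0.34), among them Cyr61, Ptgs2 and Tead1 (1.29, 1.34 and 1.24), while Ctgf moved by 0.02. In controls 5 were higher and 1 lower.

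The 8 largest higher differences from controls included Ivl, Anxa8, Dse and Ecm1, genes known from squamous epithelium or matrix, while Lce1i and Fmod, of like kinds, were among the 8 largest lower ones. Involucrin (Ivl), a protein of the cornified envelope of skin, read 4.48, 4.54, 4.58 and 4.38 at 24 h, not above background on any array, and 6.60, 6.53, 6.01 and 6.47 at 48 h, detected on all 4. It was at least 1.65-fold higher at 48 h (adjusted p = 3.21e-09). On the control arrays it was at 4.44 to 4.78 and not above background at either time, and the changes differed by 1.97 (adjusted p = 2e-05). Anxa8 rose from 4.76 to 6.09 to 7.16 to 7.44, detected on 1 and 4 arrays, and the difference from controls was 1.43 (adjusted p = 0.0129). Dse, an epimerase that makes dermatan sulfate, rose by 1.78 (difference 1.26, adjusted p = 0.00549), and the matrix protein Ecm1 by 1.11 (difference 1.11, adjusted p = 0.0126). The prostaglandin synthase Ptgs2 (COX-2) rose by 1.34 against 0.38 in controls, a difference of 0.96 (adjusted p = 0.0271) that was lost in 10 of the 16 fits leaving out 1 array. The small proline-rich protein Sprr1a rose by 1.11, from 7.97 to 8.18 to 9.06 to 9.28, and by 0.35 in controls, a difference that was not called. Of 26 keratin and junction genes, 9 rose and 3 fell, among them Krt7 and the desmosomal cadherin Dsg2 (1.11 and 0.74), and Krt4, which was not above background at 24 h and is given no size. Nupr1, a stress-induced nuclear protein, was level in irradiated organoids (9.35 to 9.59 and 9.37 to 9.68) while it fell by 1.13 in controls (difference 1.18, adjusted p = 0.000642). Cybrd1, an iron reductase that was not above background at 24 h, and Rad1, a checkpoint clamp subunit, also rose. Their differences from controls of 1.07 and 1.02 were lost in 11 and 9 of the 16 fits leaving out 1 array (adjusted p up to 0.0752 and 0.0818), and Rad1 reached the level of the controls (5.94 to 6.37 in irradiated organoids of 48 h against 5.94 to 6.35).

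**Figure D3:**
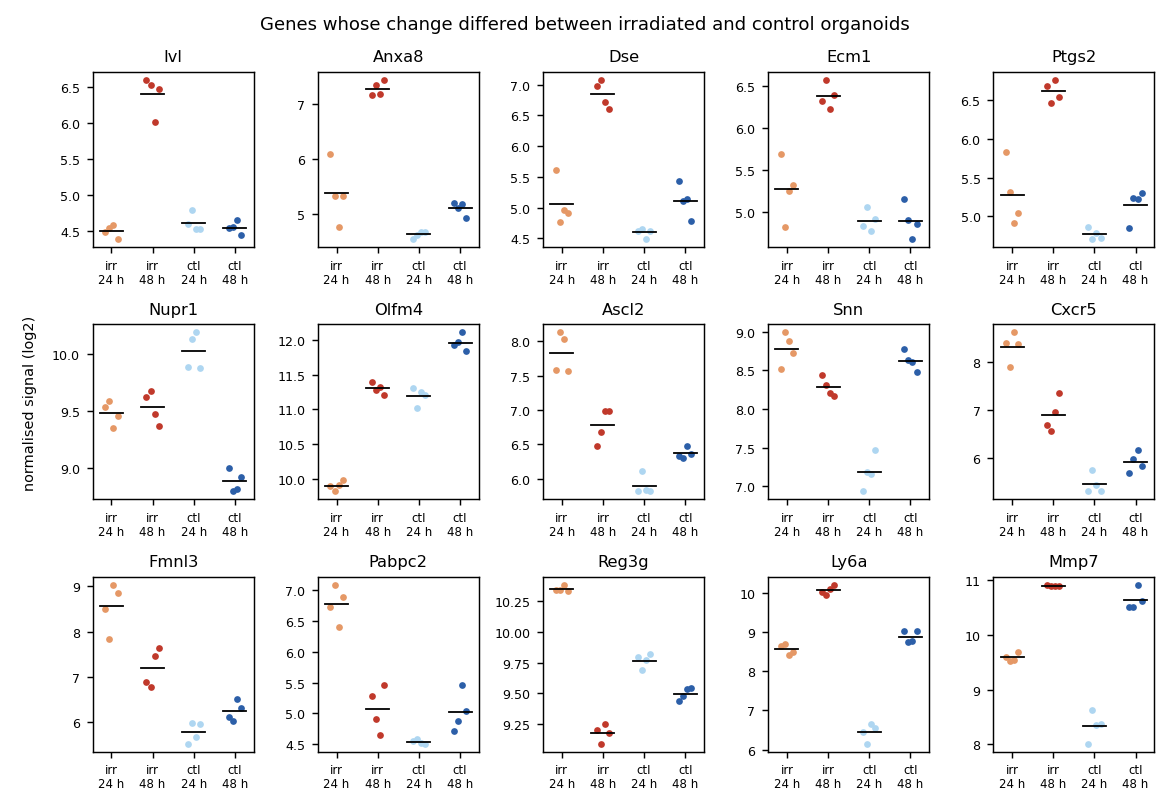
Normalised log2 signal per array for 15 genes whose change from 24 to 48 h differed between irradiated (irr) and control (ctl) organoids; points are arrays and bars are means of 4. Ivl, Anxa8 and Ecm1 are highest on the 4 irradiated arrays of 48 h, and Ascl2, Cxcr5, Fmnl3 and Pabpc2 are highest on the 4 irradiated arrays of 24 h.

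Among secretory cells, Paneth and enteroendocrine genes rose. Of 17 Paneth genes 9 rose and 1 fell (median 0.42), and in controls 10 and 1 (0.48). Pla2g2a, an antibacterial phospholipase of Paneth cells, read 4.91, 4.76, 4.84 and 4.59 at 24 h, not above background on any array, and 7.03, 6.98, 6.96 and 7.13 at 48 h, at least 2.54-fold higher (adjusted p = 5.66e-11), and rose by 1.61 in controls. The matrix protease Mmp7 rose 2.48-fold, from 9.52 to 9.69 to 10.89 to 10.91, less than in controls (2.30, difference −0.99, adjusted p = 0.00448). Lysozyme (Lyz1) rose 1.36-fold. Of 32 enteroendocrine genes 16 rose and 0 fell (0.48), against 18 and 1 in controls (0.57). The hormone gene Pyy read 4.89, 4.83, 4.49 and 4.85 at 24 h, not above background, and 7.18, 6.67, 7.18 and 6.83 at 48 h, at least 2.44-fold higher. The granule protein Chga rose 2.54-fold, and Tph1, which makes serotonin, by 1.07. Without replicates 3 and 4 of 24 h, 8 enteroendocrine genes were called higher. Goblet genes split, 3 rising and 3 falling of 18, with the mucus regulator Clca3 at 0.34 (not called) and the kallikrein Klk1 falling 2.32-fold. Of 10 tuft cell genes 2 fell, Il17rb and Vav1, each near background (detected on 1 and 1 and on 2 and 0 arrays of 24 and 48 h), and both calls were lost in some fits leaving out 1 array. In bulk samples, fewer cells of a type and less RNA per cell cannot be told apart.

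Enterocyte genes fell. Of 32 tested, 21 fell and 3 rose (median −0.49), and in controls 14 and 1 (−0.34). Slc6a19, the brush border carrier of neutral amino acids, read 9.81, 9.38, 9.59 and 9.74 at 24 h and 8.23, 8.22, 8.06 and 8.07 at 48 h, a 2.80-fold fall without overlap (adjusted p = 1.48e-07). In controls it fell by 1.46. Tm6sf2, which lipidates lipoproteins, fell 2.72-fold, to 7.49 to 7.69, below all values of 24 h, and Apoc3, a lipoprotein component, 2.29-fold. The peptidase Dpp4 fell by 0.87, the fructose carrier Slc2a5 by 1.04 and the fatty acid binder Fabp1 by 0.70. Apoa1, the main protein of HDL, was not called, with values of 12.67 to 13.00 and 12.73 to 12.90. The mean level of the list was 9.90 to 9.97 at 24 h and 9.39 to 9.47 at 48 h, above the controls at both times (9.06 to 9.15 and 8.69 to 8.77), by a median of 0.74 and 0.73. With median scaling 5 enterocyte genes fell and 3 rose (median −0.16), and 16 and 2 did without replicates 3 and 4 of 24 h. Of 26 intestinal transcription factors 7 fell and 5 rose, led by Gata4, which specifies jejunal enterocytes (−1.15), and by Isx (0.99).

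Genes of drug metabolism fell. Of 38 xenobiotic genes 30 fell and 2 rose (median −0.69), against 25 and 2 in controls (−0.54). Cyp2s1, a cytochrome P450, read 9.05, 8.90, 8.94 and 8.97 and then 6.88, 7.04, 7.14 and 7.25, a 3.70-fold fall without overlap (adjusted p = 1.76e-08). The glucuronosyltransferase Ugt2b5 fell by 1.75 and Nr1i3 (CAR), a nuclear receptor that induces such enzymes, by 1.77. The rising exceptions were Cyp1a1 and Cyp1b1, targets of the aryl hydrocarbon receptor. Both were not above background at 24 h, and by 48 h the rise came to at least 1.24-fold for Cyp1a1 and at least 1.73-fold for Cyp1b1. Their rise exceeded that in controls (adjusted p of the differences 0.0106 and 0.0141), which were not above background at 24 h either. With median scaling 17 xenobiotic genes fell and 2 rose (−0.33), and 27 and 2 did without replicates 3 and 4 of 24 h.

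NRF2 and glutathione genes fell in 17 of 34 tested, and 2 rose (median −0.30), against 16 and 0 in controls (−0.33). The quinone reductase Nqo1 read 8.62, 8.68, 8.56 and 8.78 at 24 h and 7.45, 7.42, 7.08 and 7.25 at 48 h, a 2.57-fold fall without overlap (adjusted p = 1e-06). The haem oxygenase Hmox1 fell 2.61-fold, from 7.90 to 8.57 to 6.42 to 7.21, and by 0.31 in controls, where it was not called; the difference of −1.08 was not called either (adjusted p = 0.0624). The glutathione transferase Gstm1 fell by 1.22. The cystine carrier Slc7a11 and the gut peroxidase Gpx2 rose (0.99 and 0.41). With median scaling 7 of the list fell and 2 rose, and 12 and 1 did without replicates 3 and 4 of 24 h.

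Hypoxia and glycolysis genes fell in 14 of 32 and 1 rose, Mxi1 (0.42), with a median of −0.36. In controls 19 fell and 0 rose (−0.42). Aldoc, an aldolase, read 7.50, 7.33, 7.34 and 7.45 and then 5.89, 5.98, 5.83 and 5.78, a 2.90-fold fall without overlap, and the glycolytic enzymes Eno1 and Pfkl fell by 0.89 and 0.68. Ankrd37, a target of the hypoxia factor HIF, was not called (−0.36, adjusted p = 0.104). Of 31 genes of fatty acid oxidation 13 fell and 1 rose (−0.37). Ehhadh of the peroxisome (−1.08) and Cd36, the fatty acid carrier (−0.87), were among those that fell. In controls 12 of this list fell and 0 rose (−0.21), and Ehhadh and Cd36 fell by 0.73 and 0.89. Of 33 genes of oxidative phosphorylation 6 fell and 0 rose (−0.19), Atp5o most (−0.76). The falls were near the share over all genes, 14.2%, and in controls 9 fell and 0 rose. The counts of these 3 lists in irradiated organoids depend on the scaling. With median scaling 4 hypoxia and glycolysis genes were lower and 3 higher, and 1 fatty acid gene lower and 5 higher. Of the oxidative phosphorylation genes 0 were then called. Leaving out replicates 3 and 4 of 24 h gave 11, 10 and 1 lower genes in the 3 lists.

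**Figure D4:**
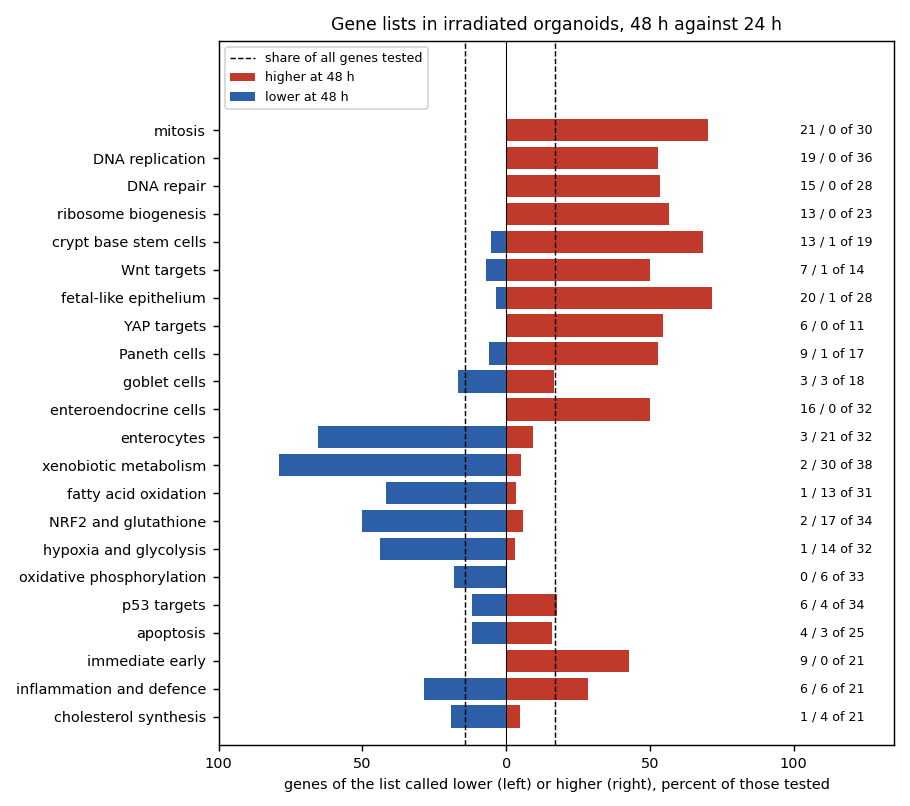
Share of each gene list called lower (blue, left) or higher (red, right) in irradiated organoids at 48 h against 24 h, in percent of the genes tested, with the counts as higher / lower of tested on the right. Dashed lines mark the shares over all genes, 16.9% higher and 14.2% lower; mitosis (21 of 30) and fetal-like genes (20 of 28) reach furthest right, and xenobiotic genes (30 of 38) furthest left.

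Immediate early genes rose in 9 of 21 and 0 fell (median 0.35), against 8 and 1 in controls (0.20). Ier3 read 8.55, 8.72, 8.63 and 8.55 and then 9.75, 9.79, 9.75 and 9.79, without overlap, and Fos, a subunit of AP-1, rose by 1.01 from 6.88 to 7.31 to 8.04 to 8.23. The matricellular protein Cyr61 rose by 1.29. Jun, the other AP-1 subunit, differed by 0.43 and was not called, while it rose by 1.22 in controls.

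Defence genes split, 6 rising and 6 falling of 21. Reg3g, an antibacterial lectin, read 10.34, 10.34, 10.39 and 10.34 at 24 h and 9.20, 9.09, 9.25 and 9.18 at 48 h, a 2.26-fold fall without overlap (adjusted p = 4.9e-09). It fell by 0.27 in controls, and the difference of −0.91 was called (adjusted p = 0.000642). At 24 h irradiated organoids were 0.59 above their controls for Reg3g and at 48 h 0.32 below. Its relative Reg3b was not called (12.07 to 12.13 and 12.17 to 12.42). The lectin Mbl2 was not called either (−0.41, adjusted p = 0.0843). Of 16 interferon and MHC genes 4 rose and 3 fell, with Ifit2 at least 1.38-fold higher on its brightest probe and Ifit3, another interferon-induced gene, falling by 0.72. Of 33 genes of the integrated stress response and unfolded protein response 6 fell and 2 rose. Cebpb and Ddit3 (CHOP), both stress-induced transcription factors, fell by 1.06 and 0.90, the latter on its brightest probe only.

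Of 17 amino acid transport genes 6 rose and 4 fell. The uptake carriers Slc6a19 and Slc7a8 of mature enterocytes fell (−1.48 and −1.16), while Slc7a15 and Slc7a11 rose (1.43 and 0.99). Of 21 cholesterol synthesis genes 4 fell and 1 rose, with Ebp, Dhcr7 and Stard4 moving most (−0.49, −0.45 and −0.36), and with median scaling 0 fell and 4 rose. Of 14 Notch pathway genes Rbpj rose (0.85), Mfng was called higher near background (detected on 0 and 1 arrays, a call lost in 4 of the 8 fits leaving out 1 array), and the target Hes5 fell (−0.80). Among 54 ribosomal protein genes 4 rose and 1 fell, and among 30 proteasome genes 4 rose and 0 fell. The changes were at most 0.93 (Rplp0) and 0.41 (Psmb2, on its brightest probe only). Of these lists, 1 and 0 genes were called higher and 0 lower without replicates 3 and 4 of 24 h. Few markers of other cell types passed the detection filter: 3 of 20 mesenchyme, 7 of 20 immune, 5 of 14 endothelium and 3 of 13 erythroid genes written were tested. Called higher were Vim (0.62) and Esam (1.77, to a mean of 7.35), and Plvap, Laptm5 and Epb4.2, which were not above background at 24 h (Plvap at least 1.02-fold higher). In controls Esam, Plvap and Epb4.2 were also called higher (2.23, 0.66 and 1.20), while 0 mesenchyme genes were called. Epb4.2 rose less than in controls (difference −0.81), a call lost in some fits leaving out 1 array. Called lower were Cd8a (−0.65), Tek and Cd79b, the last not above background at either time. Tek was not above background at 48 h and was detected on 2 of the 4 arrays of 24 h. Its values of 24 h ran from 4.74 to 6.64, and it is given no size. The calls of Vim, Epb4.2 and Cd8a were lost in 4, 4 and 6 of the 8 fits leaving out 1 array. Acta2 was not called (0.06). Mean levels of these 4 lists on the arrays of 24 and 48 h were 6.84 to 7.21 and 6.99 to 7.37 for mesenchyme, 5.14 to 5.44 and 5.14 to 5.31 for immune, 5.30 to 5.71 and 5.38 to 5.64 for endothelium, and 4.92 to 5.63 and 5.02 to 5.28 for erythroid genes. Their part in the results was not tested.

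**Figure D5:**
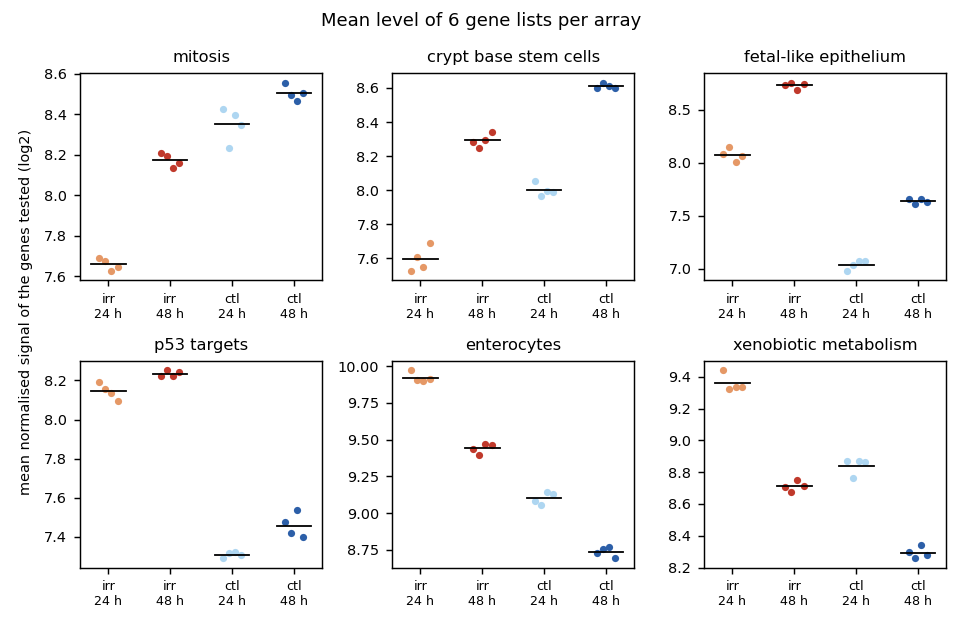
Mean normalised log2 signal of the tested genes of 6 lists on each array of the 4 groups; points are arrays and bars are means of 4. The irradiated arrays of 48 h lie above those of 24 h for mitosis (8.14 to 8.21 against 7.63 to 7.69), crypt base and fetal-like genes, below them for enterocyte and xenobiotic genes, and slightly above for p53 targets.

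The largest rises in irradiated organoids, after those named above, were Serpinb6b, a protease inhibitor (2.23), Sftpd, a lung surfactant lectin that was not above background at 24 h (at least 2.55-fold), Fkbp5, a chaperone partner of the glucocorticoid receptor (2.06), Cdo1, which oxidises cysteine (2.01), the transcription factor Elk3 (between Cdo1 and Gcnt1 in size), the glycosyltransferase Gcnt1 (1.93), the bile acid enzyme Cyp27a1 (1.86) and the membrane protein Mal (1.83). All 4 arrays of 48 h lay above all 4 of 24 h in each, and Serpinb6b, Fkbp5, Elk3, Cyp27a1 and Mal were detected on 1 to 3 of the 4 arrays of 24 h. Of these 8, all but Mal were also called higher in controls. The largest falls were Es22, an esterase, with 9.53, 9.64, 9.57 and 9.60 at 24 h and 7.04, 6.86, 6.69 and 6.91 at 48 h, a 6.54-fold fall, followed by the steroid reductase Akr1c14 (−2.67), the retinol carrier Rbp7 (−2.51), the metallothionein Mt4 (−2.35), the acyltransferase Glyat (−2.28), and the alcohol dehydrogenases Adh4 and Adh7 (−2.07 and −1.88). Itfg3, Bdh2, the nucleoside carrier Slc28a1, Abat, the digestive protease Ctrb1 and Cml4 fell by 1.79 to 1.99. Each of these was also called lower in controls, and the fall was larger than in controls for Es22 (difference −1.11, adjusted p = 0.00441), Adh4 (−0.92, adjusted p = 0.00244) and Glyat (−1.42, adjusted p = 0.0261), the last lost in 7 of the 16 fits leaving out 1 array.

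Of the 81 genes whose change was lower than in controls, 53 fell in irradiated organoids and were not called in controls. The 8 largest lower differences, and that of Duxbl, are given here, and each of these genes had its highest group mean in irradiated organoids of 24 h. Cxcr5, a chemokine receptor of B cells, read 8.39, 7.89, 8.61 and 8.36 at 24 h and 6.69, 6.57, 6.96 and 7.34 at 48 h, a 2.68-fold fall (adjusted p = 2.09e-05). In controls it was 5.31 to 5.75 and 5.70 to 6.17, and the changes differed by −1.89 (adjusted p = 0.00139). Fmnl3, a formin of the actin cytoskeleton, fell by 1.37 on its brightest probe, with another probe not called, and Stk10, a kinase of lymphocytes, by 1.19. The collagen-binding proteoglycan Fmod fell by 1.14, V1rh21, named as a vomeronasal receptor, by 1.26, the late cornified envelope gene Lce1i by 1.44 (its difference from controls was lost in 6 of the 16 fits leaving out 1 array, adjusted p up to 0.0721), and the double homeobox gene Duxbl by 1.33. Pabpc2, a poly(A)-binding protein of testis, fell 3.24-fold, from 6.39 to 7.08 to 4.65 to 5.46, and Snn (stannin) by 0.49, a fall lost in 4 of the 8 fits leaving out 1 array, where it rose by 1.44 in controls. Irradiated organoids stood above controls at 24 h for these genes by 1.59 (Snn) to 2.94 (V1rh21) and at 48 h by −0.34 (Snn) to 1.19 (V1rh21). Of the 8 genes that were called lower in irradiated and higher in control organoids, 6 had a gene name, Acta1, Ascl2, Fmod, Hoxc9, Snn and Stk10, and no gene was called the other way round. The cause of their high signal at 24 h was not tested.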

How the data were processed

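RNA of 24 organoid samples was hybridised to Illumina BeadChips, with 4 control samples and 4 irradiated ones per time (24, 48 and 96 h). Uncorrected intensity values, linear and 1 per probe and array, were deposited, and per the file headers each is paired with a detection p-value. The smallest p-value above 0 equals 1 over 798. The authors also deposited processed intensity values, used as an alternative. Their software and version: not given in the sources used here.

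Background was removed with a normexp model whose negative-probe distribution came from the detection p-values (offset 16), and signals were then quantile normalised over all 24 arrays and taken to log2 (limma 3.58.1 in R 4.3.3; files were read with data.table, version 1.17.8). A probe needed a detection p below 0.05 on 4 or more arrays, which left 15056 of 25697, and each of 10798 genes was read on its brightest probe. Among 2878 genes with several detected probes, 19 had probes called in opposite directions. The limma model gave each of the 6 groups its own mean on the 24 arrays (residual degrees of freedom 18, prior degrees of freedom 4.10 at an SD of 0.211), with Benjamini-Hochberg adjustment over all genes. The change in irradiated organoids and its difference from the control change share the irradiated arrays. The median standard error was 0.17 for the former and 0.24 for the latter. On simulated data for these 2 contrasts over 10798 genes, 32% and 7% of genes changed by 0.5 were recovered, and 89% and 55% of those changed by 1. The simulation changed far fewer genes than were called in irradiated organoids, so recovery in these data may differ. The number of arrays limits the precision.

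A gene undetected throughout a group gets a bound in place of a fold. The brighter mean is divided by a floor, averaged over the dimmer group's arrays, that is the larger of the array's lowest detected signal and the probe's signal. Gene names follow the array's design. RefSeq (GRCm38.p6) lists 14307 of its 18138 symbols as current and 2927 as older names of 1 gene, and 904 were not matched.

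The genes named are the 15 largest rises and 15 largest falls called, detected on all arrays of a group and without overlap, clone names left out; the 3 called genes with the largest change of each of 36 lists; the 8 largest differences from controls in each direction; and 32 set genes, 30 of them tested (Sis and Hmgcs1 were not analysed here). A gene that this rule names is not reported here. The gene lists and the set genes were chosen with earlier results of these data known, and other list members were named after their values were seen. Same-numbered arrays of 24 and 48 h did not deviate together (correlations 0.27, −0.24, 0.14 and −0.02), so no pairing was used. Alternatives covered background, scaling, filters, variance, arrays left out and the deposited processed values.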

Additional observations from a re-analysis of the deposited data

Results flagged for a closer look

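The named genes and the counts of detected probes gave 312 irradiated groups of 4 arrays to examine, control groups not being examined. In 19, all of named genes on the log2 scale, 1 array stood apart from the other 3 by a wide gap. Chance gives about 1 in 20 such groups. The log2 signals of these irradiated arrays follow. Replicate 1 of 24 h lay below its group in Ankrd37 (6.91). Replicate 2 of 24 h lay below its group in Xpc (4.59) and above its group in Chga (10.16), Hist2h2aa1 (8.23), Hist1h1c (9.84) and Lce1i (8.53). Replicate 3 of 24 h lay below its group in Pyy (4.49), Anxa1 (7.27) and Habp2 (5.45) and above its group in Tm6sf2 (9.16) and Reg3g (10.39). Replicate 4 of 24 h lay below its group in Cd8a (5.69) and Hist1h2ab (7.60) and above its group in Ifit2 (5.29). Replicate 1 of 48 h lay above its group in Cml4 (8.15). Replicate 2 of 48 h lay above its group in Gcnt1 (9.50). Replicate 4 of 48 h lay below its group in Bcl2 (8.56) and above its group in Plvap (6.18) and Axin2 (9.42).

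For 27 of the genes named by the rule above, the change from 24 to 48 h in irradiated organoids differed from the change in controls in limma's test of that difference at an adjusted p under 0.05, in log2 units. It was higher for Anxa8 (1.43), Ivl (1.97), Dse (1.26), Olfm4 (0.63), Ptgs2 (0.96), Nupr1 (1.18), Ecm1 (1.11), Cybrd1 (1.07) and Rad1 (1.02). It was lower for Es22 (−1.11), Glyat (−1.42), Adh4 (−0.92), Epb4.2 (−0.81), Reg3g (−0.91), Mmp7 (−0.99), Ascl2 (−1.51), Pabpc2 (−2.17), Snn (−1.93), Cxcr5 (−1.89), Stk10 (−1.87), Fmnl3 (−1.83), Fmod (−1.82), V1rh21 (−1.75), Lce1i (−1.74), Ly6a (−0.92), Anxa3 (−0.88) and Duxbl (−1.67). Other genes with a called difference, such as Cenpa, Aqp4, Cyp1a1 and Cyp1b1, were named outside that rule. Their differences were not examined with arrays left out. The cause was not tested.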

How the results depend on the processing

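Several settings moved the counts by over 1.5 times. Median scaling gave 4107 higher and 536 lower genes in irradiated organoids (control lower 414, difference 14 and 19), and the median change of all genes became 0.36. Cyclic loess gave 1261 and 1651, which is within 1.5 times. Entering each array's count of detected probes in the fit gave 873 and 1012, without replicates 3 and 4 of irradiated 24 h (chosen after seeing the data) 951 and 935 (difference higher 11), and with probes detected on all 8 irradiated arrays (also chosen after) 1182 and 1333 of 6946 genes. At an adjusted p under 0.01 the counts were 1048 and 928, 634 and 602 in controls, and 8 and 33 for the difference. Array weights gave 2312 and 1808 in controls and 131 and 188 for the difference. The mean over a gene's probes gave 41 higher differences, and the 16 arrays of 24 and 48 h alone gave 54. The difference in detected probes at a detection p under 0.01 was 2376 (exact permutation p = 0.0286, the smallest that 70 splits allow). The deposited processed values, no background correction and a trended variance kept all 6 counts within 1.5 times.

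Leaving out 1 array at a time gave 1335 to 1779 higher and 1212 to 1554 lower genes in irradiated organoids, 807 to 1415 and 732 to 1140 in controls, and 15 to 45 and 54 to 89 for the difference. The count of higher differences, 27 with all arrays, moved by over 1.5 times without control 24 h replicate 3 (16) or 4 (17), irradiated 24 h replicate 1 (45) or 3 (16), control 48 h replicate 1 (15) or 3 (17), or irradiated 48 h replicate 2 (16). The difference in detected probes ranged from 1614 (without irradiated 24 h replicate 3) to 2682 (without replicate 1). Its exact permutation p ran from 0.0286 (without irradiated 24 h replicate 1) to 0.143 (without irradiated 48 h replicate 1). Of 169 called results of named genes, 144 were never lost this way and 25 were lost at least once (changes of Areg, Atp5o, Cd8a, Epb4.2, Hist1h1c, Hist1h2ab, Il17rb, Mfng, Ndufs3, Psma1, Psmb2, Rps16, Rrs1, Sdhb, Snn, Stard4, Vav1 and Vim, and differences of Cybrd1, Epb4.2, Glyat, Lce1i, Olfm4, Ptgs2 and Rad1). A replicate block, though the replicate numbers were not shown to pair samples, gave 1858 and 1637 in irradiated organoids, 1206 and 994 in controls, and 29 and 83 for the difference.

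The sign of the log2 change in irradiated organoids turned under some setting for 15 named genes, of which 5 had been called, Ebp, Dhcr7, Stard4, Ndufs3 and Snn, all with median scaling. It turned with median scaling for Ebp (0.028), Dhcr7 (0.090), Stard4 (0.16), Ndufs3 (0.065), Snn (0.0016), Cdkn1a (0.21), Phlda3 (0.49), Bax (0.22), Pcna (0.35), Ankrd37 (0.16), Mbl2 (0.13). It turned with cyclic loess for Apoa1 (−0.13), Reg3b (−0.0015). It turned with array weights for Apoa1 (−0.0016). It turned with probes averaged per gene for Phlda3 (0.18), Bbc3 (−0.053). It turned with the detected-probe term for Nupr1 (−0.071), Phlda3 (0.24), Pcna (0.031), Apoa1 (−0.043). It turned with irradiated 24 h replicates 3 and 4 left out for Nupr1 (−0.027), Phlda3 (0.013), Pcna (0.034), Apoa1 (−0.0033). Without single arrays, Apoa1 ranged from −0.030 to 0.083, Pcna ranged from −0.060 to 0.083, Phlda3 ranged from −0.092 to 0.031. The cause was not tested. Dim probes limit the low genes: a gene not above background at 24 h has only a bound.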
